A study of Mus musculus with 5 samples.

Results

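*Cd74*, *H2-Aa*, *H2-Ab1*, *H2-Eb1*, *H2-DMa*, *H2-DMb1* and *Ciita* are the genes of MHC class II antigen presentation described here, 7 of the 24319 genes measured by RNA-seq in sorted mouse mammary luminal cells. They were chosen by name, with their values in these libraries already known, so their levels are given as a description. There were 5 libraries of cells sorted as DAPI-, CD24 high and CD29 low after depletion of lineage-positive cells. The labels give wild type for Lum1, Lum2 and Lum3 and *Brca1* knockout for Lum4 and Lum5, and mixed strain for all of them. The study's methods describe young adult female mice, virgin or pregnant, of a mixed C57BL/6 and 129/Sv background. In the knockout, *MMTV-Cre*, a transgene active in mammary epithelium, deletes floxed *Brca1*. The paper names the luminal cells of its bulk comparison as BRCA1-deficient throughout, so each library is named here by its label. Whether the mouse behind a library was virgin or pregnant, and whether the 5 libraries came from separate mice, is not given in the sources used here, so a p-value measures the spread between these libraries.

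MHC class II molecules present peptides from the endosomes to CD4+ T cells. The α and β chains (*H2-Aa* with *H2-Ab1*, and *H2-Eb1* for the E molecule) assemble on the invariant chain *Cd74*, and *H2-DMa* with *H2-DMb1* exchanges the last invariant chain fragment for antigenic peptide. *Ciita* is the master transactivator of these genes and acts through factors bound to the X and Y boxes of their promoters. B cells, dendritic cells and macrophages make class II all the time, whereas epithelial cells can make it after interferon gamma, which acts through factors such as *Irf1* on *Ciita*.

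*H2-Aa* and *H2-Eb1* are shown by the 150 bases before their annotated starts, because one was highest in Lum2 and the other in Lum5. The sequences are from RefSeq on GRCm38.p6, 5′ to 3′ on the strand of the gene, for *H2-Aa* at chr17:34287824-34287973 (minus strand) and for *H2-Eb1* at chr17:34305717-34305866 (plus strand). Capitals mark the Y box CTGATTGG in both, TGACGTCA in *H2-Aa* and the X box AGNAACTGA in *H2-Eb1*.
H2-Aa: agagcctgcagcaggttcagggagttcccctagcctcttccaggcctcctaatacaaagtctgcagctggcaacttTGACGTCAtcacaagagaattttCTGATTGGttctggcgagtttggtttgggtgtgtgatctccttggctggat
H2-Eb1: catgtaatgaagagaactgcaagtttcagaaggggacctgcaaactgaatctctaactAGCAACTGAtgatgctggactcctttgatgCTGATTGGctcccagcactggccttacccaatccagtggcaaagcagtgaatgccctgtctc
Windows from 250 bases before to 50 after the start were searched on both strands. The Y box began at position -51 from the start in *H2-Aa* and at -62 in *H2-Eb1*, and 4.1% of 32851 mouse promoter windows held it. The X box lay at -92 in *H2-Eb1* and at -95 in *H2-DMb1*, and 2.03% of windows held it. *H2-Aa* had no match to these X box letters but had TGACGTCA at -74, found in 1.79% of windows. *H2-DMb1* had the shorter Y box core GATTGG at -62 (16.1% of windows, and part of every Y box), and of the 2 windows of *H2-DMa* 1 had this core, at -199. None of the windows of these 4 genes held the motif TTCNNNGAA, a palindrome found in interferon-responsive promoters, found in 8.3% of windows. No window was at hand for *H2-Ab1*, *Cd74* and *Ciita*.

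The epithelial identity of the libraries was checked first. *Krt8*, a luminal keratin, ranged from 2240 to 3653 FPKM (fragments mapped to a gene, scaled to the length of its transcripts and to the mapped fragments of the library) and *Epcam* from 570 to 1062 FPKM. The table holds no fragment totals. The spacing of low values gave approximate depths of 6300000, 13000000 and 30300000 fragments in Lum1, Lum2 and Lum3 and 6300000 and 21300000 in Lum4 and Lum5, so Lum1 and Lum4 were the shallowest. Lum3 stood apart, with the lowest value for 51.9% of the 11481 genes that averaged at least 1 FPKM and with all 6 mature luminal genes listed (such as *Prlr* and *Pgr*) at their highest (18.5% of genes were highest there). *Brca1*, the targeted gene, was at 1.30, 1.32 and 0.234 FPKM in Lum1, Lum2 and Lum3 and at 1.2 and 1.34 FPKM in Lum4 and Lum5, so the labels overlapped in its FPKM. A value for the whole gene does not show whether its floxed part was deleted, which was not tested. The methods name a gate on the GFP reporter of Cre-active cells for the sorted single cells but not for these bulk cells.

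Class II genes were high in 3 libraries and low in the others, across both labels. *Cd74* (chromosome 18), which also serves as a receptor for the cytokine *Mif*, was at 22.7, 696 and 205 FPKM in Lum1, Lum2 and Lum3 and at 25.9 and 465 FPKM in Lum4 and Lum5. The lowest libraries of the 2 labels were thus close to each other, and the highest library was 30.7-fold above the lowest. For 6 of the 7 members Lum1 and Lum4 were the 2 lowest libraries, which held for 6.98% of the 11481 genes. The exception was *H2-Eb1*, where Lum3 lay between Lum1 and Lum4. The highest library was Lum2 for 4 members (16.0% of the 11481 genes) and Lum5 for *H2-Eb1*, *H2-DMa* and *Ciita* (21.2% of genes).

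**Figure D1:**
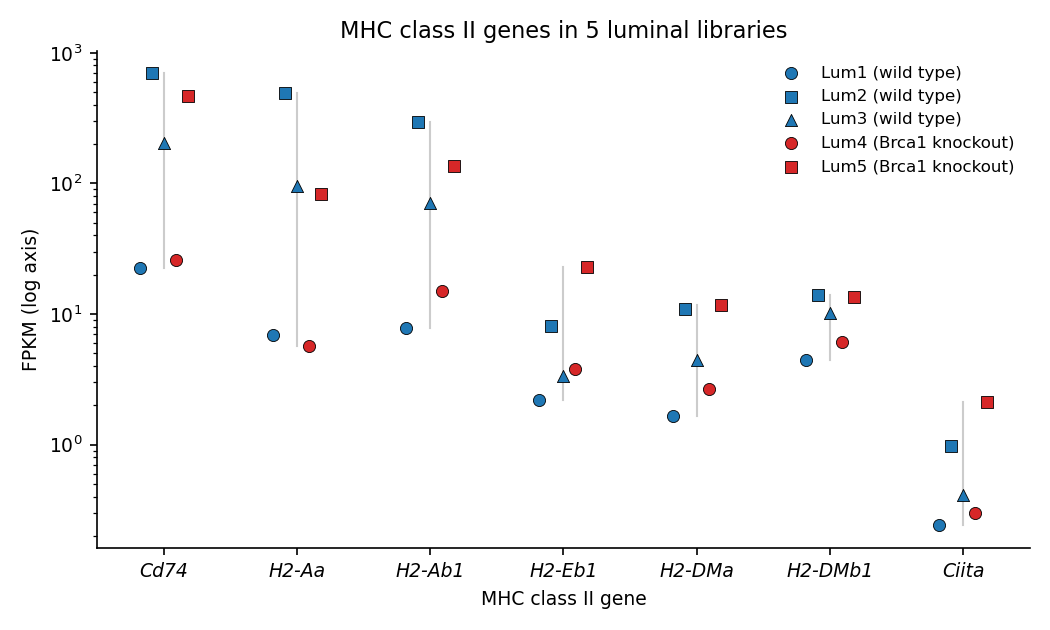
FPKM of the 7 MHC class II genes (log axis) in each of the 5 luminal libraries, with colour for the label, a symbol for each library and a grey line from the lowest to the highest. The circles (Lum1 and Lum4) lie at the bottom for 6 of 7 genes, and the squares (Lum2 and Lum5) are the highest libraries of their label for every gene.

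The A chains had the widest range. *H2-Aa* (chromosome 17, 34282744 to 34287823 of mm10, minus strand), the α chain, was at 6.89, 490 and 95.3 FPKM in the wild type libraries and at 5.66 and 82.9 FPKM in Lum4 and Lum5, a range of 86.5-fold. *H2-Ab1* (34257689 to 34269419, plus strand) encodes its β partner and was at 7.77, 294 and 71.4 FPKM in wild type and at 15.1 and 137 FPKM in the knockout, a range of 37.8-fold. Both were highest in Lum2. Lum5 exceeded Lum3 for *H2-Ab1* but not for *H2-Aa*, and the knockout libraries lay within the wild type range for *H2-Ab1* while Lum4 was just under it for *H2-Aa*.

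*H2-Eb1* (34305867 to 34316674, plus strand), the E β chain, was far lower and had another order of libraries. It was at 2.19, 8.14 and 3.37 FPKM in wild type and at 3.8 and 22.7 FPKM in the knockout, so Lum5 exceeded Lum2, the next library. For its E α partner no gene is listed under the name *H2-Ea*. The entry *H2-Ea-ps*, named as a pseudogene, was at 0.769, 13 and 5.78 FPKM in wild type, was listed at 0 in Lum4 and was at 1.71 FPKM in Lum5. *H2-Ea-ps* was therefore highest in Lum2, where *H2-Eb1* was not. The antisense gene *Gm20513* overlaps *H2-Eb1*, and the library kit did not mark strand, so reads of the pair cannot be told apart.

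The peptide exchange genes varied less. *H2-DMa*, on the plus strand from 34119541 to 34139101, reached 1.64, 10.9 and 4.45 FPKM in wild type and at 2.65 and 11.8 FPKM in the knockout. *H2-DMb1*, on the plus strand from 34153072 to 34160230, reached 4.42, 13.9 and 10.2 FPKM in wild type and at 6.11 and 13.6 FPKM in the knockout, the narrowest range of the members at 3.15-fold. Lum2 and Lum5 were the highest pair for both genes and differed little from each other. *H2-DMa* overlaps *Brd2* on the other strand, and *H2-DMb1* has the near-identical neighbour *H2-DMb2*, at 3.32, 10.4 and 9.99 FPKM in wild type and 1.91 and 7.19 FPKM in the knockout, so the split between them is uncertain.

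*Ciita*, on the plus strand of chromosome 16 from 10480059 to 10528418, was the lowest member and had its highest value in Lum5. It was at 0.242, 0.977 and 0.409 FPKM in wild type and at 0.299 and 2.12 FPKM in the knockout, which corresponded to about 9.11, 76.6 and 74.5 fragments in wild type and 11.4 and 270.6 in the knockout. Its mean of 0.81 FPKM was under the 1 FPKM minimum for testing, which the other 6 members passed. Lum5 was 7.08-fold above Lum4, and Lum2 was 4.04-fold above Lum1. The gene *Dexi* overlaps *Ciita* on the other strand.

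The next question was whether the labels differ in class II expression. They overlapped for all 7 genes, whereas both knockout libraries lay above all wild type ones for 17.5% and below them for 5.77% of the 11481 genes. On the log2(FPKM + 1) scale, which understates the change of low genes, knockout minus wild type was -0.43 (SE 1.80) for *Cd74*, -1.61 (SE 1.96) for *H2-Aa* and -0.28 (SE 1.67) for *H2-Ab1*. The difference was 1.08 (SE 0.79) for *H2-Eb1*, 0.30 (SE 0.80) for *H2-DMa* and 0.07 (SE 0.53) for *H2-DMb1*. Each standard error was larger than the difference except that of *H2-Eb1*, and limma gave adjusted p-values (Benjamini-Hochberg) between 0.92 and 0.99. Over all 11481 genes 0 were called at an adjusted p of 0.05 (0.0% of genes), while 372 had an unadjusted p under 0.05. With the minimum lowered to 0.1 FPKM, the difference for *Ciita* was 0.41 (SE 0.42, adjusted p = 0.89 by limma). *H2-Aa* differed by -3.43 without Lum5 and by 0.22 without Lum4, and *Cd74* by -2.48 without Lum5 and by 1.63 without Lum4.

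The members did not keep fixed proportions. Relative to *Cd74* in the same library, *H2-Aa* stood at 0.304, 0.704 and 0.465 in wild type and at 0.218 and 0.178 in the knockout. Both knockout libraries were below every wild type library. The same held for *H2-Aa* relative to *H2-Ab1*, at 0.887, 1.67 and 1.33 in wild type and at 0.375 and 0.606 in the knockout. These ratios were picked after the values were seen and were not tested. The 5.77% above is a share of single genes, and the share of gene ratios with that order was not computed. *H2-Eb1* relative to *H2-Ab1* was 0.282 in Lum1 and 0.252 in Lum4, against 0.0277 in Lum2, 0.0472 in Lum3 and 0.166 in Lum5. *Ciita* relative to *Cd74* was likewise highest in the low libraries, at 0.0107 in Lum1 and 0.0115 in Lum4, and was 0.00140 in Lum2, 0.00200 in Lum3 and 0.00456 in Lum5. Where *Cd74* was high, the E β chain, the DM genes and *Ciita* thus made up a smaller part relative to it, and of the high libraries Lum5 had more *H2-Eb1*, more *Ciita* and less *H2-Aa* per *Cd74* than Lum2 and Lum3.

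**Figure D2:**
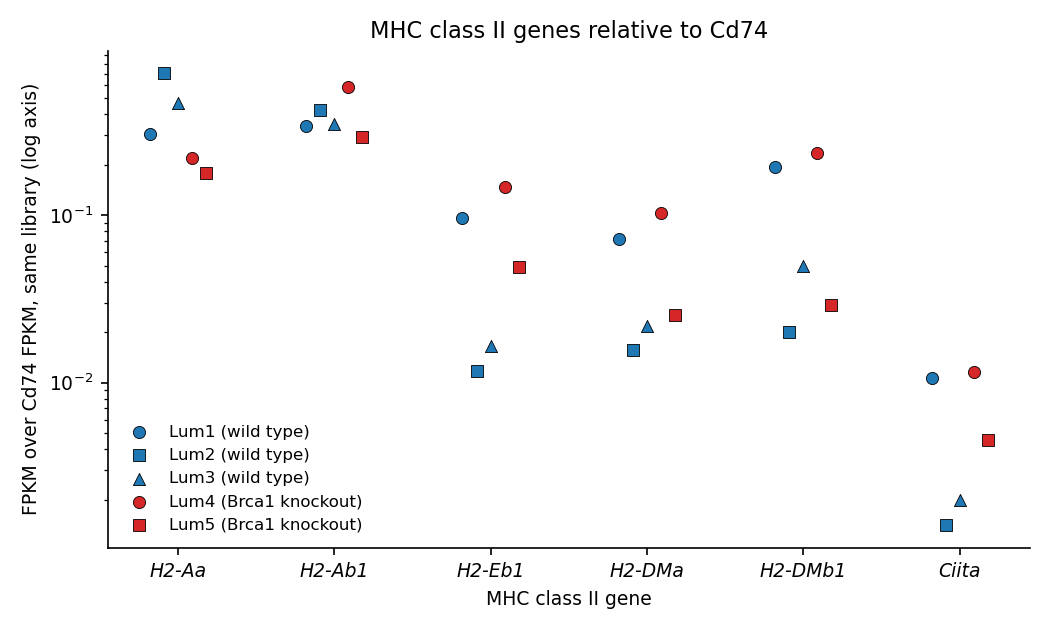
FPKM of each other MHC class II gene divided by the FPKM of *Cd74* in the same library (log axis), with colour for the label and a symbol for each library. *H2-Aa* per *Cd74* is lower in both knockout libraries (0.218 and 0.178) than in the wild type ones, and *H2-Eb1* per *Cd74* is higher in Lum5 (0.0489) than in Lum2 (0.0117) and Lum3 (0.0164).

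Whether class II followed leukocyte genes was asked next, with *Ptprc* (CD45, the common leukocyte phosphatase) as the reference gene. *Ptprc* was at 0.0603, 4.93 and 2.69 FPKM in Lum1, Lum2 and Lum3 and at 0.119 and 0.183 FPKM in Lum4 and Lum5, or about 2.17, 369, 468, 4.34 and 22.4 fragments. It was high in Lum2 and Lum3 and low in Lum5. *Cd74* per *Ptprc* was 376, 141 and 76.1 in Lum1, Lum2 and Lum3 and 217 and 2539 in Lum4 and Lum5, a range of 33.4-fold. With the counting error of *Ptprc* (95% exact Poisson interval, which covers counting error only), the ratio lay between 1677 and 4052 in Lum5, between 84.8 and 796 in Lum4, between 128 and 157 in Lum2 and between 69.5 and 83.5 in Lum3. In Lum1, with 2 fragments, it lay between 104 and 3108, which overlaps Lum5.

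**Figure D3:**
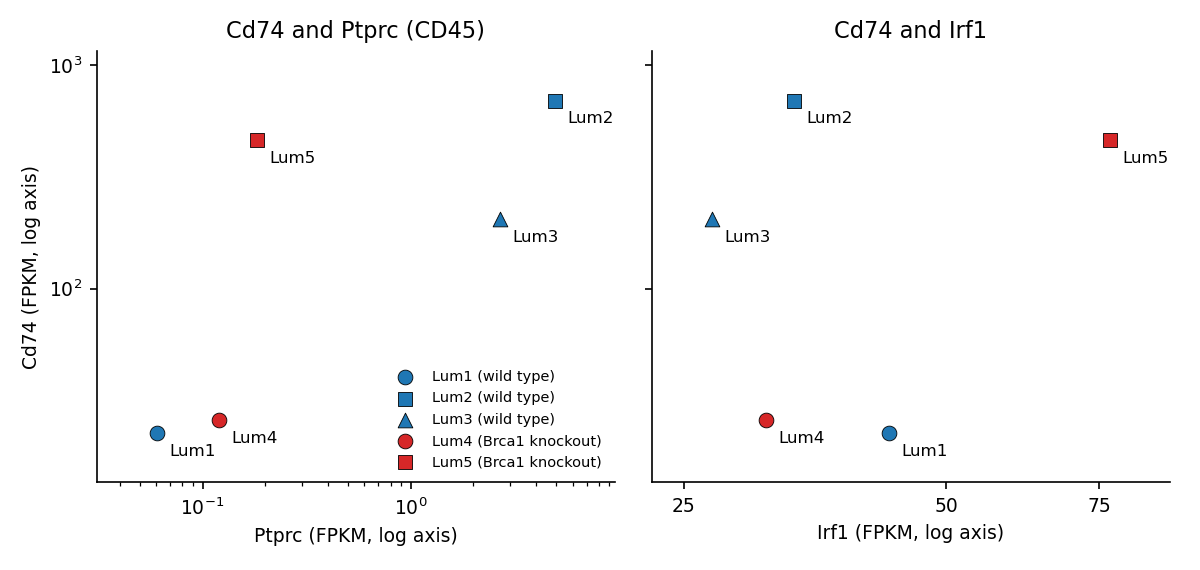
*Cd74* in FPKM against *Ptprc* (left) and against *Irf1* (right) in the 5 libraries, all on log axes, with colour for the label and a symbol for each library. Lum2 and Lum3 are high in *Cd74* and *Ptprc*, while Lum5 has *Cd74* of 465 FPKM at a *Ptprc* of 0.183 FPKM and the highest *Irf1* (77.1 FPKM).

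The list of 16 pan-leukocyte genes gave the same picture once 2 of them were set apart. *Lcp1*, an actin bundling protein, and *Cytip*, a cytohesin binding protein, were high in every library (*Lcp1* from 29.1 to 56.2 FPKM, *Cytip* from 13.5 to 23.1 FPKM) and made up most of the summed level in Lum1, Lum4 and Lum5. Without this pair, a choice made after the values were seen, the list summed to 2.87, 103 and 51.5 FPKM in Lum1, Lum2 and Lum3 and to 2.66 and 6.60 FPKM in Lum4 and Lum5. *Cd74* relative to this sum was 7.90, 6.78 and 3.98 in the wild type libraries, 9.74 in Lum4 and 70.5 in Lum5. Over the whole list it was 0.412, 4.0 and 2.03 in the wild type libraries, 0.380 in Lum4 and 6.06 in Lum5. In bulk libraries fewer cells of a type and less RNA per cell cannot be told apart.

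The leukocyte genes of Lum2 and Lum3 were in part of the same kinds, and B cell genes set Lum3 apart. Macrophage and monocyte genes summed to 528 FPKM in Lum2 and to between 23.9 and 65.0 FPKM in the other libraries. *C1qa*, a complement subunit of macrophages, was at 63.3 FPKM in Lum2 and 3.77 FPKM in Lum3 but at 0.340, 0.169 and 1.38 FPKM in Lum1, Lum4 and Lum5, and *Csf1r* was at 14.6 FPKM in Lum2 and 0.491 FPKM in Lum5. *Mertk*, a receptor for dying cells, was high in most libraries (2.38 to 20.4 FPKM) and made up most of that list's sum in Lum1, Lum4 and Lum5. Macrophage genes were also raised in Lum3, where *Lyz2* was at 28.7 FPKM against 3.06 FPKM in Lum1. There 8 of 13 were at least 2-fold above Lum1 on the log2(FPKM + 1) scale (8.48% of all genes tested), and 1 was as much lower. B cell genes were highest in Lum3 for 9 of 10 genes (18.5% of the 11481 genes were), although only *Cd79a* and *Cd72* of the list averaged 1 FPKM or more and *Cd72* was highest in Lum2. They summed to 24.2 FPKM there, against 1.27 to 3.43 FPKM elsewhere. *Cd79a*, a B cell receptor subunit, was at 7.71 FPKM in Lum3 and 0.194 FPKM in Lum5. *Ms4a1* (CD20) was at 2.48 FPKM in Lum3, was listed at 0 in Lum1, Lum2 and Lum4 and was at 0.024 FPKM in Lum5. Dendritic cell genes summed to 29.6 FPKM in Lum2 and 8.72 FPKM in Lum3, with 2.04, 2.53 and 3.43 FPKM in Lum1, Lum4 and Lum5.

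In Lum5 every class II member was at least 2.22-fold above Lum4 in FPKM, with few reads from leukocyte markers. *Itgax* (CD11c) was at 0.138 FPKM, *Adgre1* (F4/80) at 0.101 FPKM and *Cd3e* at 0.0354 FPKM in Lum5. Compared with Lum4, several of these lists were still somewhat higher in Lum5, with *Laptm5* at 0.271 and 1.06 FPKM and *Lyz2* at 1.04 and 4.53 FPKM in Lum4 and Lum5. Fibroblast genes also moved with the leukocyte genes, with list sums of 3.0, 109 and 86.0 FPKM in Lum1, Lum2 and Lum3 and 3.86 and 12.6 FPKM in Lum4 and Lum5. The part of these other cell types in the class II levels was not tested.

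Interferon response genes had another pattern. *Irf1*, which acts on the *Ciita* promoter, was at 43.0, 33.4 and 26.9 FPKM in Lum1, Lum2 and Lum3 and at 31.1 and 77.1 FPKM in Lum4 and Lum5. It was highest in Lum5, and Lum2 and Lum3 were below Lum1. Of the 22 interferon gamma response genes 21 were highest in Lum5 (21.2% of the 11481 genes were), and the list summed to 1203 FPKM there against 326 to 543 FPKM elsewhere. The exception was *Cd274* (PD-L1), highest in Lum2 at 4.44 FPKM. *Ifng* itself was at most 0.0910 FPKM, and its receptor genes *Ifngr1* and *Ifngr2* spanned 31.1 to 60.3 FPKM and 14.2 to 25.4 FPKM.

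Differences between single libraries of a label placed these lists beside class II. Each rests on 1 library against another and has no replicate check, the pairs were chosen with the class II levels known, and the pairs of Lum2 and Lum3 share Lum1. In Lum5 all 7 members were at least 2-fold higher than in Lum4 on the log2(FPKM + 1) scale, as were 2.25% of the 11481 genes, with a median log2 difference of 2.31. Counting the list genes that averaged 1 FPKM or more, 19 of 22 interferon gamma genes and 19 of 24 type I interferon genes were that much higher. The same held for 0 of 11 pan-leukocyte genes, 4 of 13 macrophage and monocyte genes and 2 of 5 fibroblast genes. The medians over the full lists were 1.45, 1.61, 0.18, 0.27 and 0.59 in the same order. *Tgtp1*, an interferon-induced GTPase, was 15.2-fold higher in Lum5 than in Lum4, *Cd74* 18.0-fold and *Ptprc* 1.54-fold in FPKM. The pseudocount holds down the differences of low genes, and in FPKM *Coro1a* was 7.66-fold, *Itgb2* 3.99-fold, *Laptm5* 3.91-fold, *Cd52* 3.69-fold and *Cd53* 2.66-fold higher in Lum5 than in Lum4, at levels of at most 1.83 FPKM.

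In the wild type pairs the pan-leukocyte and macrophage lists, not the interferon lists, were higher along with class II, but other lists were too. The fibroblast list had 5 of 5 genes at least 2-fold higher in both pairs, with medians of 3.47 in Lum2 and 2.54 in Lum3 over Lum1. All 6 mature luminal genes were that much higher in Lum3 (median 3.49), and the B cell list had a median of 0 in Lum2. From Lum1 to Lum2 6 of 7 members were at least 2-fold higher (3.81% of all genes tested), the median over the members was 2.17, and *H2-Aa* was 71.0-fold and *Ciita* 4.04-fold higher in FPKM. There 9 of 11 pan-leukocyte genes and 12 of 13 macrophage genes were at least 2-fold higher, and *Ptprc* was 81.7-fold higher. Of the interferon gamma genes 1 of 22 was, and the median of that list was -0.36. From Lum1 to Lum3 5 of 7 members were at least 2-fold higher (8.48% of all genes tested), with a median of 1.05, as were 8 of 11 pan-leukocyte genes and 1 of 22 interferon gamma genes, with a median of -0.84 for the last list. Type I interferon genes were high in Lum1 as well as in Lum5. *Ifit1*, an interferon-induced antiviral gene, was at 6.10 FPKM in Lum1 and 5.91 FPKM in Lum5 and at 0.984 to 1.33 FPKM in Lum2, Lum3 and Lum4, while Lum1 was the lowest or next to lowest library for every class II member.

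**Figure D4:**
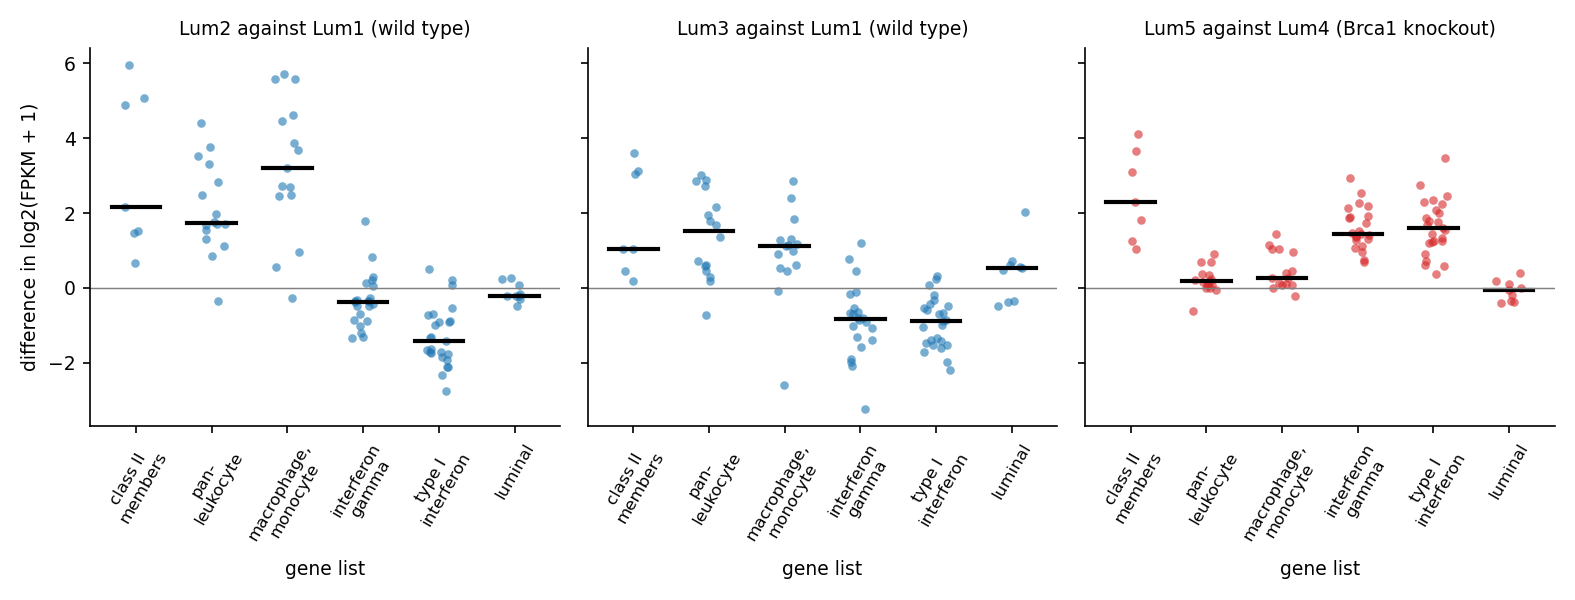
Differences in log2(FPKM + 1) of each gene in 6 lists between single libraries of one label, with a point for each gene and a black bar at the list's median. The median of the class II members was 2.17, 1.05 and 2.31 from left to right, whereas that of the interferon gamma list was -0.36, -0.84 and 1.45 and that of the pan-leukocyte list 1.74, 1.52 and 0.18.

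With list medians over 5 libraries, the pan-leukocyte and interferon response lists lay no nearer to the members' median profile than a flat line did. In each library that median is the value of a single member, *H2-DMb1* in Lum1, Lum2 and Lum3, *H2-Aa* in Lum4 and *H2-Eb1* in Lum5. It therefore does not stand for *Cd74*, *H2-Aa* and *H2-Ab1* across the libraries, which are compared by member below. The root mean square difference between centred log2 profiles was used as the measure of likeness, since 5 libraries are too few for a correlation. The members' median profile lay 0.773 from a flat line, 0.997 from the pan-leukocyte list, 1.00 from the interferon gamma list and 0.808 from the type I list. With these medians none of the 3 lists was nearer than the flat line. The distance to the pan-leukocyte list was 1.62 with a pseudocount of 0.1. With means in place of medians it was 0.917, the smallest of the 15 lists compared but close to that of the fibroblast list (0.925). The other class II chain (0.960), macrophage (0.975) and dendritic cell (0.979) lists came next. The interferon gamma list was at 1.25 and the type I list at 1.43. No flat line distance was computed for means, so whether any list was nearer than a flat line is not known under that setting. Of the other lists, those nearer than the flat line were the interferon gamma receptor and kinases (0.665), the other class II chains (0.680), class I presentation (0.685), dendritic cell genes (0.705), the class II proteases (0.734) and the transcription complex (0.752). The medians of the receptor and kinases, the proteases and the transcription complex had SDs over the libraries of only 0.144, 0.130 and 0.047, against 0.864 for the members. A nearly flat list has a distance near that of the flat line, so these values do not show a shared profile. Without Lum5 the pan-leukocyte list came to 0.506, against 0.581 for a flat line, and the interferon gamma list to 1.09, while the luminal progenitor list (0.171) and the dendritic cell list (0.182) were the nearest of the 15 lists with at least 3 genes averaging 1 FPKM or more. Without Lum2 and Lum3, a choice made after the values were seen, the interferon gamma list came to 0.509, against 0.942 for a flat line and 0.828 for the pan-leukocyte list. The fibroblast (0.577), other class II chain (0.642) and macrophage (0.690) lists were among the others nearer than that flat line. Without Lum1 the type I list was the nearest of the 3, at 0.381 against 0.665 for a flat line.

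Member by member the nearest list differed. *H2-Aa* lay 1.22 from the macrophage list and 2.69 from the interferon gamma list, with 2.36 for a flat line. *Cd74* (1.34 and 2.21, flat 2.04) and *H2-Ab1* (1.14 and 2.15, flat 1.89) had the same order. *H2-Eb1* lay 0.866 from the interferon gamma list and 1.60 from the macrophage list, with 1.03 for a flat line. *H2-DMa*, *H2-DMb1* and *Ciita* were no nearer to either of these lists than to a flat line. The distance depends on the size of the changes as well as on their order. The macrophage medians varied widely (SD 1.64), and *H2-DMb1* and *Ciita* lay only 0.579 and 0.499 from a flat line. That list could thus not have come nearer to these genes than the flat line, whatever its order. From the pan-leukocyte list *H2-Aa* lay 1.57, *Cd74* 1.51 and *H2-Ab1* 1.33, each nearer than its flat line, which held for no other member.

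The 10 genes whose profile was most like the members' median, over 5 libraries, were *Pet117*, *Gbp5*, *Entpd1*, *Gm6251*, *2210039B01Rik*, *Ptgs1*, *Snord17*, *C2*, *Bcl2a1d* and *F830016B08Rik*, at distances from 0.248 to 0.375. *Pet117*, the nearest, was at only 6.82e-78 FPKM in Lum1 and 0.000207 FPKM in Lum4. *Gbp5*, an interferon-induced guanylate binding protein, was at 0.226, 1.17 and 1.09 FPKM in Lum1, Lum2 and Lum3 and at 0.531 and 2.77 FPKM in Lum4 and Lum5. These genes were picked for their profile, so high values of *Gbp5* in the 3 libraries with high class II follow from that choice. *Entpd1* (CD39, an ectonucleotidase) was at 4.44, 11.1 and 6.55 FPKM in wild type and at 4.43 and 12.1 FPKM in the knockout. *C2*, a complement component whose gene is also in the MHC region, was at 0.859, 1.74 and 3.27 FPKM in wild type and at 0.669 and 5.65 FPKM in the knockout.

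Other genes of the class II pathway were read from lists. None of the genes of these lists was called between the labels by limma, where the lowest unadjusted p was 0.0495, for *Ctsd*. Of the 5 other class II chain genes in the table, *H2-Oa*, a chain of the DM inhibitor DO, was steady at 1.90 to 3.34 FPKM and was lowest in Lum5. Its partner *H2-Ob*, which is made by B cells, was at 3.53 FPKM in Lum3, 0.583 FPKM in Lum2 and 0.125 FPKM in Lum5 and was listed at 0 in Lum1 and Lum4. *H2-Eb2* was at most 0.208 FPKM.

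The factors that hold *Ciita* at the promoter each had a narrower range than any member, at most 2.26-fold (*Rfxank*) against 3.15-fold or more. *Rfx5*, which binds the X box, ranged from 3.55 to 5.30 FPKM, *Rfxap* from 5.21 to 7.81 FPKM and *Rfxank* from 1.23 to 2.77 FPKM. The Y box factors *Nfya*, *Nfyb* and *Nfyc* and the cyclic AMP response factor *Creb1* ranged from 1.2-fold to 1.93-fold between their lowest and highest library. The median log2 difference of these 7 genes from Lum4 to Lum5 was 0.02, against 2.31 for the members.

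Among the proteases, *Ctss*, which cuts the invariant chain in professional antigen presenting cells, separated Lum2 from Lum5. It was at 1.17, 55.5 and 9.46 FPKM in Lum1, Lum2 and Lum3 and at 0.643 and 2.68 FPKM in Lum4 and Lum5. Relative to *Cd74* it was 0.0514, 0.0797 and 0.0462 in wild type and 0.0248 and 0.00577 in Lum4 and Lum5, lowest in Lum5. *Lgmn*, an asparaginyl endopeptidase, was highest in Lum2 at 33.8 FPKM and between 8.69 and 19.4 FPKM elsewhere. *Ctsl*, *Ctsb*, *Ctsd*, *Ctsh*, *Ifi30* and *Sppl2a* were well expressed in all libraries and varied by at most 1.73-fold. The costimulatory genes behaved like the leukocyte genes. *Cd86*, a ligand of *Cd28*, was at 4.56 FPKM in Lum2 and 2.06 FPKM in Lum3, was listed at 0 in Lum1 and Lum4 and was at 0.113 FPKM in Lum5. *Cd83*, which stabilises class II at the surface, was at 11 and 4.60 FPKM in Lum2 and Lum3 and at 0.656 FPKM in Lum5. *Cd80* and *Cd40*, the other 2 genes of the list, averaged under 1 FPKM.

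Class I presentation genes were highest in Lum5 for 7 of 7 genes listed, as were 21.2% of the 11481 genes. *Nlrc5*, the class I counterpart of *Ciita*, was at 8.12, 5.59 and 4.59 FPKM in wild type and at 10.7 and 18.0 FPKM in the knockout. *B2m*, the class I light chain, was at 1781, 1704 and 2066 FPKM in wild type and at 1968 and 2894 FPKM in the knockout. The median log2 difference of the class I list was 0.56 from Lum4 to Lum5, against 2.31 for the class II members, and -0.12 from Lum1 to Lum2, against 2.17 for the members.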

How the data were processed

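RNA-seq of 5 libraries of sorted luminal cells was analysed, 3 labelled wild type and 2 labelled *Brca1* knockout. The deposited values are FPKM, which the authors made by trimming with Trimmomatic 0.35, alignment to mm10 with TopHat (2.1.1 in the paper's methods, TopHat2 2.0.13 in the submitters' processing notes) and quantification with Cufflinks 2.2.1. The gene annotation is not given in the sources used here. The labels' extraction text speaks of frozen tumors, and the paper's methods of sorted cells. Of 24346 rows, 27 with a gene name turned into a date were left out, and 24319 genes remained. The table holds no counts, so no count test was run. Only 53.3% to 57.3% of low values, each multiplied by transcript length for 103 to 167 genes, lay within 0.15 of a whole number of fragments (30% by chance). Depths and fragment numbers are therefore approximate.

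FPKM were analysed as log2(FPKM + 1). The labels were compared over the 11481 genes that averaged 1 FPKM or more by limma 3.58.1 (lmFit, eBayes with trend) in R 4.3.3, with Benjamini-Hochberg adjustment and a threshold of 0.05. Tested on simulated data for 11481 genes in the same 5 libraries, it found 83.5% of 200 genes shifted by 2 on the log2 scale where the SD was 0.5, and 100% where it was 0.2. It also called 14 and 12 unshifted genes. The 6 members tested had SDs within a label from 0.73 (*H2-DMb1*, knockout) to 3.00 (*H2-Aa*, wild type), so these rates do not apply to them. FPKM ratios were taken within a library. Coordinates are those of GENCODE M21 on GRCm38, which is mm10. Ratios, distances and intervals were computed in Python 3.11.15 with scipy 1.17.1.

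The members and gene lists were chosen with earlier results of these data known. Genes named are the members, pathway genes averaging 1 FPKM or more, defining cell type and interferon genes, the 10 nearest profiles and *Brca1*. Some of the defining genes are not reported here. Others named (such as *Cd274*, *Mertk*, *Ms4a1*, *Laptm5*, *Tgtp1*, *H2-Ob*) were picked after their values were seen. The alternatives changed the pseudocount (to 0.1), the scaling (median-of-ratios or quantile), the filter and the test settings, took means in place of medians, or left out each library in turn.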

Additional observations from a re-analysis of the deposited data

How the results depend on the processing

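No paired analysis was possible because the labels give no pairing between wild type and *Brca1* knockout libraries. The count of genes called between the labels was 0 under both other scalings, the other pseudocount, both other filters and both other eBayes settings. With 1 library left out it ranged from 0 to 14, with 2 called without Lum1, 14 without Lum4 and 4 without Lum5, none of them a class II gene, and a label left with 1 library is then assumed to vary like the other. The median over the members of the difference between labels (0.07, log2) had no stable sign. It was -0.030 under median-of-ratios scaling, -0.038 under quantile scaling and -0.063 as a mean over the members, and ranged from -0.60 to 1.2 with 1 library left out. Over all genes the median difference was 0.11 as deposited and 0.01 after median-of-ratios scaling, so the value for *H2-DMb1*, which took the same -0.030 and -0.038, follows the scaling. With 1 library left out, *Cd74* ranged from -2.48 to 1.63, *H2-Aa* from -3.43 to 0.22, *H2-Ab1* from -1.83 to 1.27, *H2-Eb1* from -0.069 to 2.24, *H2-DMa* from -0.60 to 1.2 and *H2-DMb1* from -0.44 to 0.59. Those that turned sign were *Cd74* at 0.68 without Lum2 and 1.63 without Lum4, *H2-Aa* at 0.22 without Lum4, *H2-Ab1* at 0.90 without Lum2 and 1.27 without Lum4, *H2-Eb1* at -0.069 without Lum5, *H2-DMa* at -0.24 without Lum1 and -0.60 without Lum5, and *H2-DMb1* at -0.34 without Lum1 and -0.44 without Lum5. The distance to the interferon gamma list went from 1.00 to 0.509 without Lum2 and Lum3, an alternative added after the data were seen. The distance to the pan-leukocyte list went from 0.997 to 1.62 with a pseudocount of 0.1 and to 0.506 without Lum5. With means over a list it was 0.917, the smallest of the lists under that setting but close to the fibroblast list at 0.925. The distance to the type I list went from 0.808 to 1.43 with means over a list and to 0.381 without Lum1. The range of *Cd74* per *Ptprc* (5.06 on the log2 scale) was 2.31 without Lum5, with 2.31 to 5.06 over the libraries left out. The cause of the changes was not tested. The other values computed under alternatives for the comparisons, levels, distances and ratios kept their direction and side of the threshold or moved by less than the spread between libraries. Depth limits low genes such as *Ptprc* and *Ciita* in Lum1 and Lum4, the shallowest libraries.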
